A study of Mus musculus with 16 samples.

Results

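The 10 genes described here act in cell cycle arrest and the p53 pathway or are used as markers of cellular senescence: Cdkn1a, Cdkn1b, Cdkn2a, Cdkn2b, Cdkn2c, Mdm2, Ccng1, Gdf15, Lmnb1 and Trp53inp1. They were chosen by symbol, out of 35569 symbols in the deposited table, and each table entry (a RefSeq transcript, called a row below) was assigned to a symbol by its accession. RNA was measured by poly-A RNA-seq in inguinal subcutaneous adipose tissue (SAT) and mesenteric visceral adipose tissue (VAT) of 8 male wild-type C57BL/6J mice. The 4 lean mice ate a normal laboratory diet, and the 4 obese mice ate a high-fat Western diet (TD.88137) with 42% of its energy from fat and 0.2% cholesterol. Both diets began at 10 weeks of age and lasted 12 to 14 months. Each mouse gave 1 SAT library, from its left and right depots combined, and 1 VAT library, so that 4 groups of 4 libraries were compared. Visible vessels had been dissected away. Each library is bulk tissue, so fewer cells of a type and less RNA per cell cannot be told apart.

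A cell is committed to divide when cyclin-dependent kinases (CDKs) phosphorylate the retinoblastoma family proteins and release the E2F transcription factors. The INK4 inhibitors (Cdkn2a, Cdkn2b and Cdkn2c) bind CDK4 and CDK6, whereas the CIP/KIP inhibitors (Cdkn1a and Cdkn1b) act on a wider set of cyclin-CDK complexes. The transcription factor p53 induces Cdkn1a, Mdm2, Ccng1, Trp53inp1 and Gdf15 after stress, and Mdm2 in turn marks p53 for degradation. Senescence is a lasting arrest known in adipose tissue of old and obese animals. Its usual markers are p16Ink4a and p21 (the product of Cdkn1a), loss of lamin B1 (Lmnb1), raised lysosomal beta-galactosidase and a secretion of cytokines and proteases.

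In obese mice, Cdkn2c RNA was 2.28 times lower in SAT and 2.10 times lower in VAT than in lean mice, and of the 8 genes tested it alone passed the test in both depots. Over all 12185 genes tested, 11.6% passed in SAT and 12.2% in VAT. Lmnb1 RNA was 2.10 times higher in VAT of obese mice than in VAT of lean mice. Trp53inp1 was upregulated in VAT as well, with a call that was lost under several alternatives. Cdkn1a had a higher mean in obese mice in both depots, with overlap between the diets, and did not pass the test. Cdkn2a had 51 counts and Gdf15 had 2 over all 16 libraries. Cdkn2b differed in its diet response between the 2 depots, with a call that also depended on single mice.

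Total counts ranged from 1256082 to 16614407 per library. The shallowest libraries were VAT lean replicate 1 and VAT obese replicate 1, in which 1 count stands for 0.796 and 0.445 CPM, the unit of counts scaled to the library total. In the other libraries 1 count stands for 0.0602 to 0.217 CPM. The 10 genes have 18 rows, of which 14 had counts and 13 had at least 10 counts over the 16 libraries. Rows of a gene were summed. The authors did not state how reads shared by several transcripts were counted, and symbols with a single row (51.6% of all) hold 88.7% of the counts on symbols. Low counts of a gene with several rows are therefore not read as low expression. Cdkn1b, Cdkn2b and Lmnb1 have 1 row each. Of the 10 genes, 8 passed the filter on low counts (CPM above 1 in at least 3 libraries), and Cdkn2a and Gdf15 did not. Levels below are TMM-scaled CPM, which are not per transcript length, so they are compared between libraries and not between genes.

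The promoter sequences of Cdkn2c and Cdkn2b are shown because these genes carry the change common to both depots and the difference between the depots. Both are on the minus strand of chromosome 4 in GRCm39: Cdkn2c lies at chr4:109517957-109524386 and Cdkn2b at chr4:89223204-89229276, beside Cdkn2a at chr4:89192708-89212890. RefSeq's table of promoters (build GRCm38.p6) gives 2 start sites for Cdkn2c, 1384 bases apart. Of the 6 Cdkn2c transcripts in the GENCODE annotation of GRCm39, the nearest begins 90 bases from the upstream site and 1474 bases from the downstream site, so none begins near the latter. Each 300-base window below runs from 250 bases before the start site to 50 bases after it, matched exactly 1 place in GRCm39, and is written 5′ to 3′ on the gene's strand with GC boxes (GGGCGG) and CCAAT boxes (CCAAT) in capitals.
Cdkn2c upstream start, chr4:109523904-109524203: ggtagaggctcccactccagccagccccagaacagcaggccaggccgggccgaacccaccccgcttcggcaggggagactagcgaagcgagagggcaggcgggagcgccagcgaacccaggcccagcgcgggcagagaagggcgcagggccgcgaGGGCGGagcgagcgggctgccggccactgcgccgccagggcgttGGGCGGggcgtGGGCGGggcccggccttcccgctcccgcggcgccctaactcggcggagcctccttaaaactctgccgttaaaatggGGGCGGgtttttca
Cdkn2c downstream start, chr4:109522520-109522819: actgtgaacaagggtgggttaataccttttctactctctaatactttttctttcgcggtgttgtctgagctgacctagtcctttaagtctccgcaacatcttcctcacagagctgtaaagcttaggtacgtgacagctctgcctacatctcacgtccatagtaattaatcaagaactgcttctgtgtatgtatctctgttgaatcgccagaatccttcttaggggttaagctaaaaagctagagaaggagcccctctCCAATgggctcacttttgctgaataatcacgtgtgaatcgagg
Cdkn2b, chr4:89229220-89229519: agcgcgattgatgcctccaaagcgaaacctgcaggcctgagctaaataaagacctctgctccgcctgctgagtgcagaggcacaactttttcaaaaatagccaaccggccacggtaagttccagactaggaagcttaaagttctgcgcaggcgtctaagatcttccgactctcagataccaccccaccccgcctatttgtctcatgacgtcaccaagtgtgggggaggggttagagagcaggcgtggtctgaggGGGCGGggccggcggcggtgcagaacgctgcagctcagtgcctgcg

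The 2 Cdkn2c windows are unlike each other. The upstream window has a GC content of 73.3%, 33 CpG dinucleotides and 4 GC boxes, whereas the downstream window has a GC content of 44.0%, 8 CpG dinucleotides and 1 CCAAT box. The Cdkn2b window has a GC content of 57.7%, 18 CpG dinucleotides and 1 GC box. Motifs were searched on both strands. Of 32851 promoter windows of this length, 35.7% hold a GC box, 37.4% a CCAAT box, 13.6% a TATA box (TATAAA) and 2.26% at least 1 of 4 E2F sites (TTTCCCGC, TTTGGCGC, TTTCGCGC or TTTGCCGC). No TATA box and none of these E2F letters were found in the 3 windows. A match is a run of letters and not a measured binding site.

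Cdkn2c, which encodes the INK4 inhibitor p18, was downregulated in both depots. Its levels in SAT were 126, 147, 185 and 156 CPM in lean mice and 85.4, 69.7, 49.8 and 64.5 CPM in obese mice. Its levels in VAT were 92.1, 89.8, 117 and 122 CPM in lean mice and 71.0, 51.6, 46.1 and 36.6 CPM in obese mice. Every obese library was below every lean library of its depot. The log2 fold change, obese against lean, was -1.19 in SAT (SE 0.18, adjusted p = 0.000169, edgeR) and -1.07 in VAT (SE 0.19, adjusted p = 0.000544, edgeR). Neither reached the study's limit of 1.5 on the log2 scale. The responses of the depots differed by 0.14 on this scale, with an approximate 95% interval of -0.19 to 0.48 (adjusted p = 0.758, edgeR). With its rows summed, Cdkn2c was called in both depots under every alternative tried. The log2 fold change was then between -1.34 and -1.07 in SAT and between -1.29 and -0.91 in VAT. In VAT of obese mice, 3 of 7 adipocyte markers and 2 of 4 tested markers of intestinal epithelium were also lower, against 5.28% of all genes. The latter list summed to 1.19 to 32.6 CPM in lean and 2.99 to 4.2 CPM in obese VAT. DESeq2, limma voom and edgeR without the 2 shallowest VAT libraries called 1, 1 and 0 of the intestinal markers, and 3 each of the adipocyte markers. In SAT none of these markers was called. Their part in the Cdkn2c level was not tested. Of 3 tested markers of exocrine pancreas, Cela1 alone was called in each depot, as higher in obese mice.

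Tested row by row, 1 of 10 rows of the 10 genes was called in SAT and 3 of 10 in VAT, against 11.0% and 10.9% of 13288 rows. Both Cdkn2c rows held counts, 10447 for NM_007671 and 3694 for NM_001301368. The row NM_007671 fell from 114 ± 26.8 to 46.1 ± 8.72 CPM in SAT (SD, n = 4) and from 76.0 ± 22.8 to 31.9 ± 3.83 CPM in VAT (SD, n = 4). Its log2 fold change was -1.31 in SAT (SE 0.19, adjusted p = 0.000107, edgeR) and -1.27 in VAT (SE 0.20, adjusted p = 0.000169, edgeR). The row NM_001301368 measured 38.6 ± 10.8 in lean and 21.3 ± 7.61 CPM in obese SAT (SD, n = 4), and 28.2 ± 11.3 in lean and 20.3 ± 14.9 CPM in obese VAT (SD, n = 4). Its adjusted p was 0.112 in SAT and 0.427 in VAT (edgeR). Without VAT obese replicate 1, 1 of the shallow libraries, this row was called in VAT (log2 fold change -1.07, adjusted p = 0.0279, edgeR), and without SAT obese replicate 1 it was called in SAT (log2 fold change -1.05, adjusted p = 0.0281, edgeR). In SAT it was also called with limma voom (adjusted p = 0.0365), in a fit of the 8 SAT libraries alone (0.0225, edgeR), without the 2 shallowest VAT libraries (0.0230, edgeR), with the replicate number as a block (0.0357, edgeR) and without the filter (0.000773, edgeR). As a share of Cdkn2c counts, NM_001301368 held 25.7% ± 7.83 in lean and 31.1% ± 6.04 in obese SAT, and 27.98% ± 14.3 in lean and 35.9% ± 15.8 in obese VAT (SD, n = 4). An exact two-sided permutation test of the share gave p = 0.343 in SAT and p = 0.457 in VAT (adjusted p = 0.457 for both over the 2 tests), where the smallest p that 4 against 4 mice allow is 0.0286. The highest shares were in the shallow libraries, 49.3% (95% Wilson interval 41.1 to 57.5) in VAT lean replicate 1 and 59.1% (52.0 to 65.9) in VAT obese replicate 1. The intervals cover counting error only. The files do not give which row starts at which of the promoters above, and an unequal change of the rows was not shown.

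**Figure D1:**
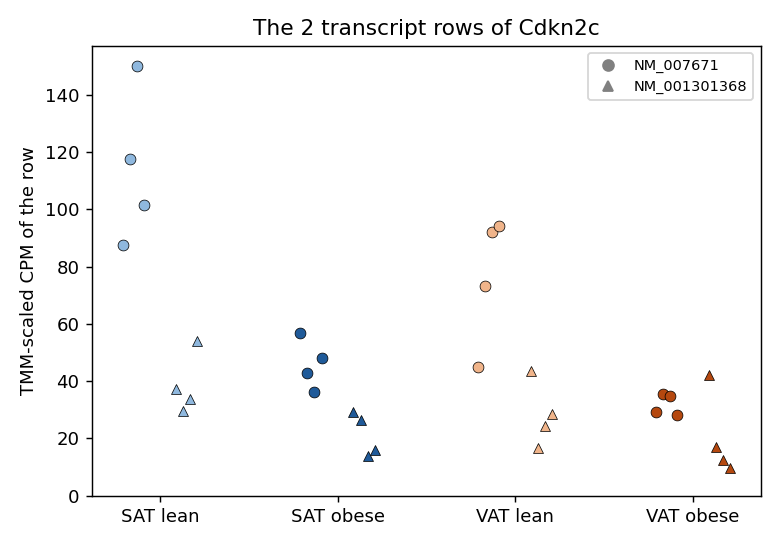
TMM-scaled CPM (vertical axis) of the Cdkn2c rows NM_007671 (circles) and NM_001301368 (triangles) in each library of the 4 groups (horizontal axis). The circles are lower in obese than in lean mice in both depots without overlap, and the triangles overlap between the diets in VAT.

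Cdkn2b encodes p15, the INK4 inhibitor induced by TGF-beta. SAT held 27.8, 12.8, 26.3 and 29.3 CPM in lean mice and 42.8, 42.4, 20.9 and 45.8 CPM in obese mice. VAT held 38.05, 18.9, 33.7 and 25.3 CPM in lean mice and 21.4, 26.6, 18.9 and 24.8 CPM in obese mice. In SAT 3 of 4 obese libraries lay above all lean libraries, and in VAT the diets overlapped. Neither depot passed the test on its own: the log2 fold change was 0.66 in SAT (SE 0.25, adjusted p = 0.0968, edgeR) and -0.28 in VAT (SE 0.26, adjusted p = 0.569, edgeR). Without SAT obese replicate 3, the low library, Cdkn2b was called in SAT (log2 fold change 0.86, adjusted p = 0.0255, edgeR).

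The difference between those responses was fitted with each mouse as a block. Of the 8 genes tested, Cdkn2b alone was called, with a difference of -0.95 on the log2 scale, VAT minus SAT (SE 0.23, adjusted p = 0.0308, edgeR). That is 1 of 8 (12.5%), against 2.47% of all 12185 genes tested, 1.62% with a lower response in VAT. The call was lost when single mice were left out, with adjusted p = 0.124 without lean replicate 2, 0.111 without lean replicate 3, 0.0887 without obese replicate 1, 0.0767 without obese replicate 2 and 0.145 without obese replicate 4 (edgeR). The difference itself stayed between -1.09 and -0.81 under every alternative. In obese mice Cdkn2b was lower in VAT than in SAT of the same mouse in 4 of 4 mice. The same test of the difference called 2 of 7 adipocyte and 1 of 4 endothelial markers with a lower response in VAT. It called 2 of 6 markers of lipid-associated macrophages with a higher one, and none of the other cell type lists. The part of these cells in the Cdkn2b level was not tested.

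Cdkn2a has 2 products with separate first exons, p16Ink4a (row NM_001040654), which inhibits CDK4 and CDK6, and p19Arf (row NM_009877), which inhibits Mdm2. The p16Ink4a row had 0 counts in all SAT libraries of lean mice and 0, 0, 0 and 1 counts in SAT of obese mice. In VAT it had 0, 6, 0 and 3 counts in lean mice and 0, 3, 3 and 1 counts in obese mice. A count of 0 allows up to 3 counts, which is 0.181 to 2.39 CPM depending on the library. The p19Arf row had 1, 0, 0 and 1 counts in lean SAT and 5, 2, 3 and 4 counts in obese SAT. In VAT it had 0, 3, 1 and 0 counts in lean mice and 0, 3, 5 and 6 counts in obese mice. All 4 SAT libraries of obese mice therefore held counts on the p19Arf row, against 2 of 4 libraries of lean mice, which are shallower (median total 9238353 against 15649552.5). In a fit without the filter, the adjusted p of the summed gene was 0.327 in SAT and 0.757 in VAT (edgeR). A diet difference in Cdkn2a was not detected with these few counts. Sequencing depth and the unstated counting of shared reads cannot be told apart as the limit.

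Cdkn1a encodes p21, the CIP/KIP inhibitor that p53 induces. In SAT it measured 7.25, 3.38, 1.25 and 9.62 CPM in lean mice and 23.4, 17.6, 5.15 and 8.47 CPM in obese mice. In VAT it measured 20.03, 2.27, 1.62 and 7.59 CPM in lean mice and 29.8, 9.70, 4.58 and 7.65 CPM in obese mice. The order of the mice was alike in the depots: obese replicate 1 was highest and obese replicate 3 lowest of the obese mice in both depots, and lean replicate 3 was lowest of all mice in both. The diets overlapped in both depots. The log2 fold change was 1.40 in SAT (SE 0.64, adjusted p = 0.171, edgeR) and 1.04 in VAT (SE 0.71, adjusted p = 0.401, edgeR), with approximate 95% intervals of 0.13 to 2.66 and of -0.34 to 2.43. Over the alternatives the VAT value ranged from 0.42, without VAT obese replicate 1, to 1.61, without VAT lean replicate 1. A fit with the replicate number as a block gave a call in SAT (log2 fold change 1.48, adjusted p = 0.0163, edgeR), where the labels give lean and obese mice no link beyond the number. A fit without the filter on low counts gave smaller adjusted p-values (2.13e-07 in SAT and 0.00328 in VAT, edgeR). In that fit edgeR replaced each gene's own spread by the trend over all genes (infinite prior degrees of freedom, against 9.60 with the filter), and the quasi-likelihood dispersion of Cdkn1a went from 6.41 to 0.873.

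Cdkn1b encodes p27, which holds resting cells out of the cycle. Its SAT levels were 60.2, 69.0, 49.6 and 64.5 CPM in lean mice and 46.4, 51.7, 53.9 and 55.5 CPM in obese mice. Its VAT levels were 71.4, 66.2, 48.1 and 65.1 CPM in lean mice and 90.1, 62.7, 79.8 and 85.8 CPM in obese mice. The log2 fold change was -0.23 in SAT (SE 0.14, adjusted p = 0.327, edgeR) and 0.35 in VAT (SE 0.14, adjusted p = 0.125, edgeR). The latter was called without VAT obese replicate 2 (log2 fold change 0.49, adjusted p = 0.0441, edgeR). The difference of the responses was 0.57 (SE 0.17, adjusted p = 0.0856, edgeR), and it passed with DESeq2 (adjusted p = 0.0325) or without obese replicate 2 (0.72, adjusted p = 0.0473, edgeR).

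**Figure D2:**
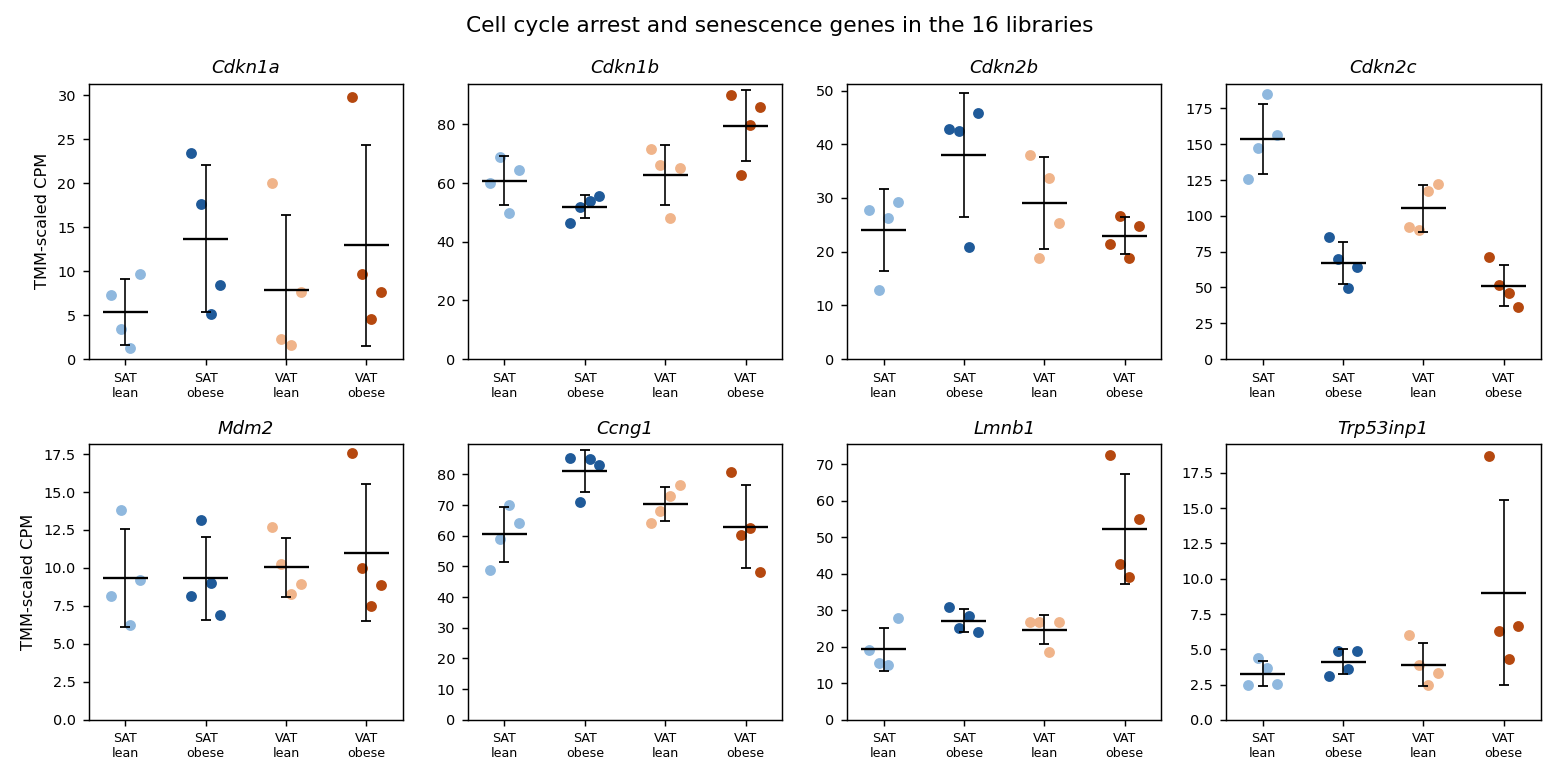
TMM-scaled CPM (vertical axes, from 0) of the 8 genes that passed the filter, by depot and diet (horizontal axes). Points are single libraries in order of replicate, black lines are means and bars are SD (n = 4), clipped at 0. Cdkn2c is lower in obese mice in both depots, Lmnb1 is higher in obese VAT, and the shallow library VAT obese replicate 1 is the highest VAT library for Ccng1, Cdkn1a, Cdkn1b, Lmnb1, Mdm2 and Trp53inp1.

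Lmnb1 encodes lamin B1, a filament protein of the nuclear envelope. SAT libraries gave 19.0, 15.5, 15.1 and 27.8 CPM in lean mice and 30.9, 25.1, 28.5 and 24.1 CPM in obese mice. VAT libraries gave 26.7, 26.8, 18.7 and 26.8 CPM in lean mice and 72.5, 42.6, 39.1 and 55.1 CPM in obese mice. Every VAT library of obese mice was above every VAT library of lean mice, whereas in SAT lean replicate 4 overlapped the obese libraries. Lmnb1 was upregulated in VAT, with a log2 fold change of 1.07 (SE 0.20, adjusted p = 0.00137, edgeR), and was called in VAT under every alternative tried. In SAT the log2 fold change was 0.51 (SE 0.20, adjusted p = 0.108, edgeR). It was called there without lean replicate 4 (0.70, adjusted p = 0.0303, edgeR) and with the replicate number as a block (0.54, adjusted p = 0.0476, edgeR). The responses of the depots differed by 0.53 (SE 0.23, adjusted p = 0.264, edgeR), which did not pass the test.

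Macrophage markers were higher in obese mice in both depots. The summed level of 7 macrophage markers was 972 to 1107 CPM in VAT of lean mice and 1761 to 2313 CPM in VAT of obese mice, and 5 of the 6 tested were upregulated. In SAT this sum was 602 to 780 CPM in lean and 997 to 1425 CPM in obese mice, with 4 of the 6 upregulated. The sum of 7 markers of lipid-associated macrophages, which include Trem2, Cd9 and Gpnmb, went from 161 to 216 CPM in lean VAT to 534 to 1831 CPM in obese VAT. T cell markers summed to 9.61 to 15.1 CPM in lean and 23.7 to 47.9 CPM in obese VAT, and B cell markers to 29.4 to 231 and 173 to 309 CPM, with overlap. In VAT 2 of 3 T cell markers and 2 of 4 B cell markers tested were called as higher, and in SAT none of either list was called. Of the 4 B cell markers, DESeq2 called 0 in VAT and limma voom 3. Without the 2 shallowest VAT libraries, edgeR called 1 of the 3 T cell and 3 of the 4 B cell markers there. Over all genes 6.35% were called higher in SAT, and 6.89% higher and 5.28% lower in VAT. No defining marker of these 4 lists was at 0 in all libraries. Of 7 adipocyte markers 3 passed the test as lower in obese VAT and none passed as higher, and their sum was 22305 to 34962 CPM in lean and 15458 to 25777 CPM in obese VAT. The part of these cells in the Lmnb1 level was not tested. Across the 16 libraries, the genes whose log2 CPM was most like that of Lmnb1, among 10709 compared, were C1qb (Pearson's r = 0.95), a complement gene of macrophages, and Myo1f (r = 0.94), a myosin of leukocytes. These r values span groups that share depot and diet and are given as a description. The other nuclear envelope genes did not pass the test: of 3 tested, none was called in either depot by edgeR, DESeq2 or limma voom (1 in SAT and 0 in VAT at an unadjusted p below 0.05).

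Mdm2, the ubiquitin ligase that holds p53 down, overlapped between the diets in both depots. In SAT it measured 8.16, 13.8, 6.23 and 9.19 CPM in lean mice and 8.17, 13.2, 8.99 and 6.92 CPM in obese mice. In VAT it measured 12.7, 10.3, 8.31 and 8.91 CPM in lean mice and 17.6, 10.0, 7.48 and 8.90 CPM in obese mice. The log2 fold change was 0.00 in SAT and 0.10 in VAT (adjusted p = 1.00 and 0.875, edgeR), with approximate 95% intervals of -0.51 to 0.51 and of -0.44 to 0.64. Of its counts, 1378 of 1461 fell on the predicted row XM_017313822.

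Ccng1 encodes cyclin G1, a p53 target that recruits a phosphatase to Mdm2. In SAT it measured 48.8, 59.0, 69.9 and 64.1 CPM in lean mice and 85.3, 71.0, 85.0 and 83.0 CPM in obese mice, so that all obese libraries were above all lean ones. In VAT it measured 64.1, 68.0, 73.0 and 76.6 CPM in lean mice and 81.0, 60.4, 62.4 and 48.2 CPM in obese mice, with overlap. The log2 fold change was 0.42 in SAT (SE 0.14, adjusted p = 0.0530, edgeR) and -0.18 in VAT (SE 0.14, adjusted p = 0.479, edgeR). The SAT value lies at the threshold. It passed without SAT lean replicate 3 (0.50, adjusted p = 0.0498, edgeR), with DESeq2 (adjusted p = 0.0367), with limma voom (adjusted p = 0.0281) and in a fit of the 8 SAT libraries alone (adjusted p = 0.0444, edgeR). The difference of the responses was -0.61 (SE 0.17, adjusted p = 0.0693, edgeR), and it passed with DESeq2 (-0.60, adjusted p = 0.0342).

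Trp53inp1 encodes a p53-induced nuclear protein that promotes arrest and autophagy. In SAT it measured 2.50, 4.37, 3.64 and 2.56 CPM in lean mice and 3.13, 4.89, 3.57 and 4.90 CPM in obese mice. In VAT it measured 6.01, 3.88, 2.48 and 3.30 CPM in lean mice and 18.7, 6.31, 4.30 and 6.65 CPM in obese mice. In VAT the diets overlapped, and obese replicate 1, a shallow library, stood far above the rest. The log2 fold change was 0.32 in SAT (SE 0.36, adjusted p = 0.624, edgeR) and 1.19 in VAT (SE 0.37, adjusted p = 0.0386, edgeR). Without VAT obese replicate 1 the VAT value was 0.73 (adjusted p = 0.115, edgeR). The call was also lost without lean replicate 2 (1.28, adjusted p = 0.0688), lean replicate 3 (1.05, adjusted p = 0.128), lean replicate 4 (1.17, adjusted p = 0.0916) or obese replicate 4 (1.302, adjusted p = 0.0589), all by edgeR, and without the 2 shallowest VAT libraries (0.82, adjusted p = 0.0602, edgeR). Limma voom (adjusted p = 0.0557) and a fit of the 8 VAT libraries alone (adjusted p = 0.0901, edgeR) did not give the call either.

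Gdf15 encodes a stress-induced hormone that acts on the receptor GFRAL in the hindbrain. It had 2 counts in all, 1 in SAT of obese replicate 3 and 1 in VAT of lean replicate 4. The other 14 libraries had 0, which allows up to 0.182 to 2.39 CPM. Gdf15 has 2 rows in the table and was not tested.

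In SAT 1 of the 8 genes tested was called (12.5%), against 11.6% of 12185 genes (6.35% higher and 5.25% lower in obese mice). In VAT 3 of 8 were called (37.5%), against 12.2% of all genes (6.89% higher and 5.28% lower). The median log2 fold change of the 8 was 0.37 in SAT and 0.22 in VAT, where the median over all genes was 0.00 in SAT and -0.02 in VAT. No member reached 1.5 on the log2 scale in either depot. Groups did not overlap for Ccng1 (higher) and Cdkn2c (lower) in SAT and for Lmnb1 (higher) and Cdkn2c (lower) in VAT. Over all genes, obese libraries lay above all lean ones for 9.5% in SAT and 7.98% in VAT, and below them for 7.83% and 6.27%.

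**Figure D3:**
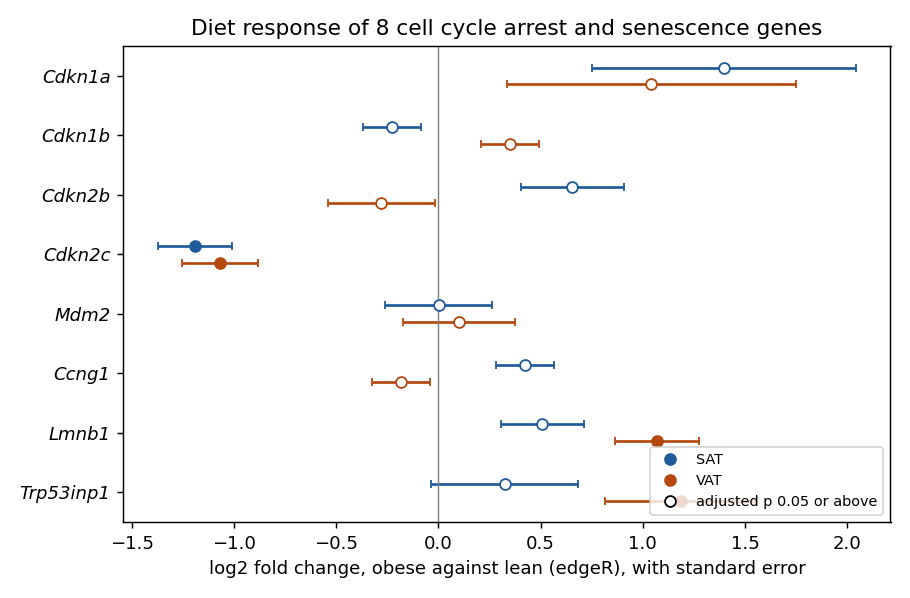
Log2 fold change of obese against lean mice (horizontal axis) with its standard error for 8 genes (vertical axis), in SAT (blue) and VAT (orange), from edgeR. Filled points have an adjusted p below 0.05. Cdkn2c is filled on the left in both depots, Lmnb1 and Trp53inp1 are filled on the right in VAT, and the points of Cdkn2b, Cdkn1b and Ccng1 lie on opposite sides of 0 in the 2 depots.

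Depots were also compared within the mouse. In lean mice 1 of 8 genes was called, against 15.9% of all genes, 7.22% lower in VAT: Cdkn2c was lower in VAT by 0.55 on the log2 scale in 4 of 4 mice (SE 0.12, adjusted p = 0.00276, edgeR). In obese mice 6 of 8 were called, against 31.3% of all genes (16.3% higher and 15.1% lower in VAT). Lmnb1 was higher in VAT than in SAT (log2 difference 0.91, SE 0.16, adjusted p = 0.000146, edgeR), as were Cdkn1b (0.60, SE 0.12, adjusted p = 0.000666, edgeR) and Trp53inp1 (0.87, SE 0.33, adjusted p = 0.0471, edgeR). Cdkn2b was lower in VAT (log2 difference -0.67, SE 0.16, adjusted p = 0.00303, edgeR), as were Cdkn2c (-0.41, SE 0.12, adjusted p = 0.0137, edgeR) and Ccng1 (-0.39, SE 0.12, adjusted p = 0.0188, edgeR). Each of these 6 moved in its direction in 4 of 4 obese mice. Lmnb1, Cdkn1b and Cdkn2b were called under every alternative. Without obese replicate 4 only these 3 remained, since Cdkn2c (-0.25, adjusted p = 0.186, edgeR), Ccng1 (-0.23, adjusted p = 0.224, edgeR) and Trp53inp1 (1.06, adjusted p = 0.0645, edgeR) then lost their calls, the last with a larger difference. Trp53inp1 also lost its call without obese replicate 1 (0.40, adjusted p = 0.319, edgeR), Cdkn2c without obese replicate 2 (adjusted p = 0.0667, edgeR) and Ccng1 without obese replicate 3 (adjusted p = 0.0935, edgeR). Trp53inp1 was not called by DESeq2 (adjusted p = 0.0545), nor Cdkn2c without the mouse as a block (adjusted p = 0.0910, edgeR). Mesothelial markers summed to 0.167 to 1.41 CPM in SAT and 252 to 608 CPM in VAT, and the part of such cells in the depot differences was not tested. In obese mice 6 of 6 macrophage, 3 of 3 T cell and 4 of 4 B cell markers tested were higher in VAT than in SAT, as were 8 of 16 proliferation genes, and 5 of 7 adipocyte markers were lower. Their part was not tested either.

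**Figure D4:**
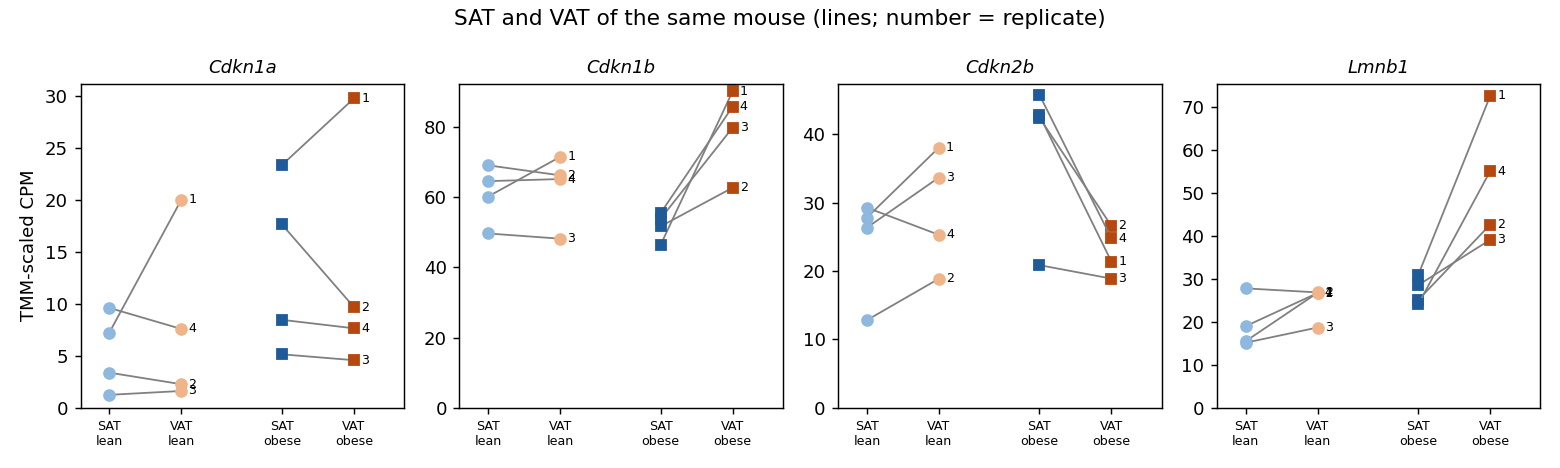
TMM-scaled CPM (vertical axes) of Cdkn1a, Cdkn1b, Cdkn2b and Lmnb1 in SAT and VAT, with a line joining the 2 depots of each mouse (circles, lean; squares, obese; numbers, replicate). In obese mice all 4 lines rise for Cdkn1b and Lmnb1 and fall for Cdkn2b, while Cdkn1a lines keep much of the order of the mice.

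The neighbours of these genes in the pathway were taken from fixed lists. Of the other CDK inhibitors and retinoblastoma proteins 3 of 6 passed the filter, and none was called in either depot (0 by edgeR, DESeq2 or limma voom, and 0 at an unadjusted p below 0.05). Of 8 tested G1 cyclins, CDKs and E2F factors, 1 was called in SAT, the repressor E2f6 (log2 fold change -1.28, SE 0.39, adjusted p = 0.0364, edgeR), and none in VAT (0 also at an unadjusted p below 0.05). None of 4 tested p53 regulators was called in either depot by edgeR, DESeq2 or limma voom (1 in SAT and 0 in VAT at an unadjusted p below 0.05). Trp53 itself, with 48 counts over its 5 rows, was not tested. Of 19 tested p53 targets, SAT had 1 upregulated, Sesn2 (0.90, SE 0.17, adjusted p = 0.00133, edgeR), a leucine sensor also induced by ATF4, and 1 downregulated, Gadd45a (-0.88, SE 0.20, adjusted p = 0.00534, edgeR), a DNA damage gene. VAT had 1 upregulated, Pmaip1 (1.04, SE 0.28, adjusted p = 0.0177, edgeR), which encodes the BH3-only protein Noxa. Of the 19, DESeq2 and limma voom each called 4 in SAT, and edgeR called 5 there without the 2 shallowest VAT libraries. The median of the 19 was 0.06 in SAT and 0.12 in VAT. Over all genes 11.6% were called in SAT and 12.2% in VAT, so that the 2 of 19 in SAT were near the background and the 1 of 19 in VAT below it.

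Of 16 tested genes of DNA replication and mitosis, 5 were upregulated in SAT and 13 in VAT, where 6.35% and 6.89% of all genes were. None was downregulated in either depot, 15 of the 16 had a log2 fold change above 0 in each, and the median log2 fold change was 0.74 in SAT and 1.40 in VAT. DESeq2 called 9 in SAT, and edgeR called 12 in VAT without the 2 shallowest VAT libraries. In SAT these included Birc5 (1.49, SE 0.42, adjusted p = 0.0230, edgeR), a survival factor of mitosis, and Kif11 (1.01, SE 0.28, adjusted p = 0.0219, edgeR), the spindle motor. In VAT they included Cdc20 (1.77, SE 0.36, adjusted p = 0.00231, edgeR), an activator of the anaphase-promoting complex, Kif11 (1.73, SE 0.29, adjusted p = 0.000395, edgeR) and Rrm2 (1.69, SE 0.25, adjusted p = 0.000109, edgeR), a subunit of ribonucleotide reductase. None of the 16 was called in the test of the difference between depots by edgeR or DESeq2 (3 at an unadjusted p below 0.05 in edgeR). The summed level of the whole list was 202 to 244 CPM in lean VAT and 322 to 494 CPM in obese VAT, highest in obese replicate 1, the library that was also highest for Lmnb1. The macrophage markers given above were higher in obese mice in both depots too. T cell and B cell markers were called as higher by edgeR in VAT only, and the part of these cells was not tested.

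Of 23 tested secreted factors named for senescent cells, 3 rose and 1 fell in SAT, and 8 rose and 1 fell in VAT, with medians of 0.14 and 0.52. The chemokine Ccl8 rose by 1.31 in SAT (SE 0.24, adjusted p = 0.00108, edgeR) and by 2.85 in VAT (SE 0.27, adjusted p = 5.84e-07, edgeR). Mmp12, the macrophage elastase, rose in VAT (3.86, SE 0.76, adjusted p = 0.00165, edgeR), as did Mmp13, a collagenase (2.86, SE 0.63, adjusted p = 0.00426, edgeR). Igfbp5, which binds insulin-like growth factors, fell by 0.78 in SAT (adjusted p = 0.000535, edgeR) and by 0.70 in VAT (adjusted p = 0.00149, edgeR). Of all genes, 6.35% rose and 5.25% fell in SAT, and 6.89% rose and 5.28% fell in VAT. Macrophage markers (4 of 6 higher in SAT and 5 of 6 in VAT) and markers of lipid-associated macrophages (3 of 6 and 6 of 6) moved with these factors, and the part of macrophages was not tested.

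Of 9 tested lysosomal genes, which are hydrolases and the membrane proteins Lamp1 and Lamp2, 4 rose in SAT and 2 in VAT, and none fell. Over all genes 6.35% rose in SAT and 6.89% in VAT. Lamp1 and Lamp2 were not called in either depot. Glb1, the beta-galactosidase behind the usual stain for senescence, rose in SAT (0.86, SE 0.16, adjusted p = 0.000883, edgeR), from 9.56 ± 1.70 to 17.4 ± 1.29 CPM (SD, n = 4). In VAT Glb1 measured 14.5 ± 1.03 CPM in lean and 15.7 ± 1.67 CPM in obese mice (SD, n = 4) and was not called (0.13, SE 0.16, adjusted p = 0.694, edgeR). The difference of its responses was -0.77 (SE 0.23, adjusted p = 0.0883, edgeR), which did not pass the test. Ctsl, a cathepsin, rose in SAT (0.93, SE 0.28, adjusted p = 0.0326, edgeR) and in VAT (1.08, SE 0.29, adjusted p = 0.0155, edgeR). Macrophages are rich in lysosomal enzymes, their markers rose in both depots as given above, and their part here was not tested.

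Of 14 tested genes of the integrated stress response, 5 rose and 2 fell in SAT and 2 rose and 2 fell in VAT, where over all genes 6.35% rose and 5.25% fell in SAT and 6.89% rose and 5.28% fell in VAT. The median of the 14 was -0.04 in SAT and -0.0023 in VAT. Macrophage markers were higher in both depots (4 of 6 in SAT and 5 of 6 in VAT), and their part in these values was not tested. Ddit4, an inhibitor of mTORC1, rose in both (2.08, SE 0.33, adjusted p = 0.000265 in SAT and 2.27, SE 0.35, adjusted p = 0.00017 in VAT, edgeR). Atf3 rose by 0.89 in SAT (SE 0.23, adjusted p = 0.0161, edgeR) and by 2.50 in VAT (SE 0.24, adjusted p = 6.22e-07, edgeR). Phgdh, the first enzyme of serine synthesis, fell by 0.73 in SAT (adjusted p = 0.000703, edgeR) and by 0.77 in VAT (adjusted p = 0.000391, edgeR). Of the GDF15 receptor genes, 1 of 2 passed the filter, and it was not called for diet in either depot.

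**Figure D5:**
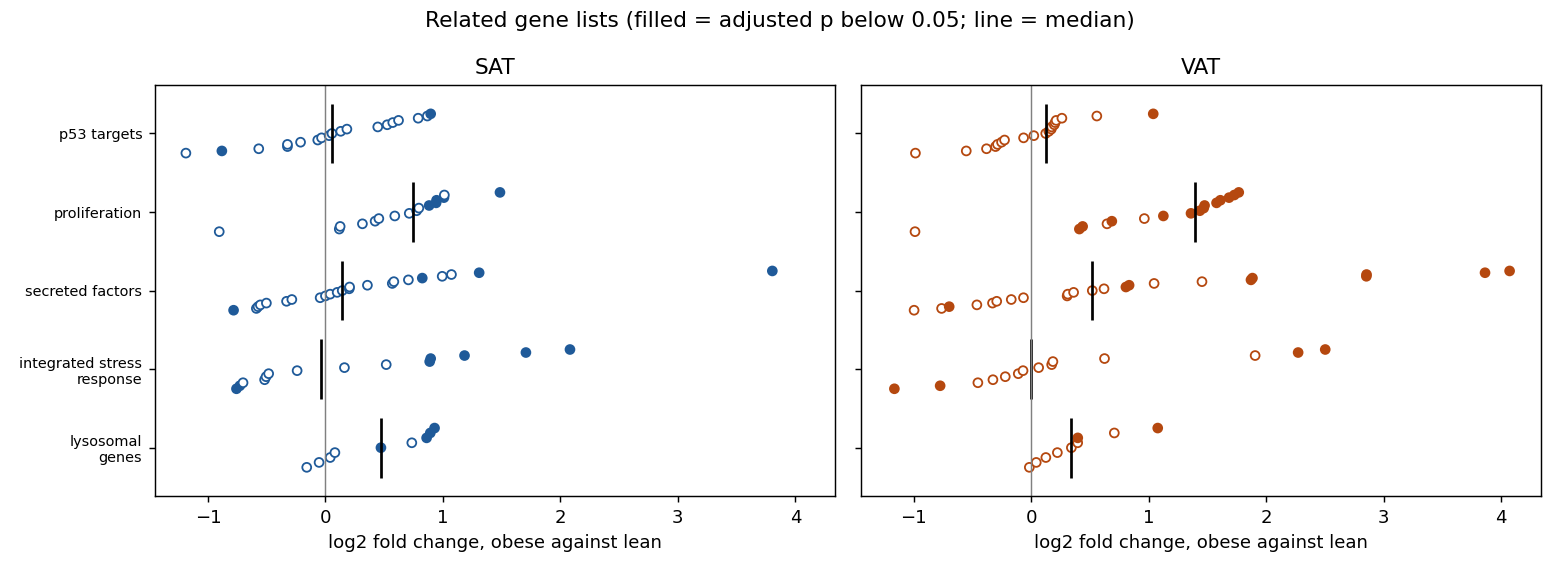
Log2 fold change of obese against lean mice (horizontal axes) for the tested genes of 5 lists (vertical axes) in SAT and VAT. Each point is a gene, filled where its adjusted p is below 0.05, and the vertical line is the list's median. Filled proliferation genes are all to the right of 0, 5 in SAT and 13 in VAT, while the p53 targets are spread about 0.

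For the other genes, the pattern most alike over the 16 libraries, by Pearson's r of log2 CPM, was that of Dhdh for Cdkn2c (0.93), followed by Cyp2f2 (0.92). For Cdkn1a it was Itpk1 (0.91), for Cdkn1b Ero1b (0.87), for Cdkn2b Gm15756 (0.80), for Mdm2 Zfp764 (0.86), for Ccng1 Washc5 (0.90) and for Trp53inp1 Cnot6l (0.89). These values rest on 4 groups that differ in level, and are given as a description only. The libraries were made with a directional kit, but the strand setting of the counting was not stated. Reads of several of the genes may therefore also come from overlapping genes on the other strand. The annotation has 504 exon bases of Cdkn1a opposite Dino, 342 of Cdkn2c opposite Gm57073, 348 of Mdm2 opposite Gm56970, 466 of Lmnb1 opposite Marchf3 and 114 of Ccng1 opposite Nudcd2.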

How the data were processed

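Bulk RNA-seq was measured in 16 libraries, SAT and VAT of 4 lean and 4 obese mice. The authors trimmed paired-end reads with Trim Galore 0.6.6 and aligned them with HISAT2 2.2.0 to GRCm39 with its RefSeq annotation. They counted with HTSeq 0.13.5 and tested with edgeR 3.34.0 (versions per the labels). The deposited table gives raw counts per transcript and CPM for 130343 rows, in 32 value columns, and no value column was left unused. Its CPM equal the counts scaled to the column total, with no TMM factor. RefSeq accessions gave a symbol to 82.0% of rows, and the counts of a symbol's rows were summed.

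Here edgeR 4.0.16 in R 4.3.3 was used (TMM, quasi-likelihood F-test with legacy=TRUE, Benjamini-Hochberg over all genes, calls at an adjusted p below 0.05) on genes with a CPM above 1 in at least 3 libraries. Diets were compared within a depot in 1 fit of all libraries without a block. Depots, and the difference of the diet response between depots, were fitted with the mouse as a block. The libraries of a mouse pair by the labels: their deviations from the group mean correlated at -0.0014 to 0.175 (median 0.0765, 8 pairs), against a median of -0.0373 in 24 pairs from different mice of 1 diet. Nothing further says that libraries of a group are more than separate animals. P-values of the diet comparisons therefore measure the spread between these mice. Those of the depot comparisons and of the difference measure how the change from SAT to VAT within a mouse varies between mice. In each fit the spread is pooled over the groups and drawn toward the trend over all genes.

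The members and the gene lists were chosen with earlier results of these data known. All 10 members, their rows with at least 10 counts, Trp53, the called list genes with the largest changes (up to 4 in each direction) and the most alike patterns (2 for each member) were to be named, and a gene that this rule covers is not reported here. Cdkn1a row NM_001111099 (11 counts) is part of its sum. Alternatives were RLE size factors, no filter, filterByExpr, DESeq2 1.42.0, legacy=FALSE, limma voom 3.58.1 and the libraries of 1 tissue alone. A replicate block for the diets, no mouse block for the depots, single rows and each mouse left out were tried too. Leaving out the 2 shallowest VAT libraries and testing the share of Cdkn2c rows were chosen after the data were seen. On simulated data with 200 genes changed 2-fold, edgeR recovered 77.5% in SAT and 71% in VAT, and the test of the difference between depots 15% (changed in SAT) and 15.5% (changed in VAT). These percentages are not for the 10 members, whose recovery at their own counts and spread was not tested. Promoters came from RefSeq (GRCm38.p6) and positions from GENCODE (GRCm39). Limits from a count of 0 use 3 counts. Body weights were not analysed here. Coordinates and sequence of Lmnb1 are not reported here.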

Additional observations from a re-analysis of the deposited data

Results flagged for a closer look

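Single libraries stood apart from the other 3 of their group for 4 genes, where the gap to the nearest library was more than 0.829 of the group's range. Cdkn2b was low in SAT of obese replicate 3, at 20.9 CPM against 42.4 to 45.8 CPM. Ccng1 was low in SAT of obese replicate 2, at 71.0 CPM against 83.0 to 85.3 CPM. Lmnb1 was low in VAT of lean replicate 3, at 18.7 CPM against 26.7 to 26.8 CPM. Trp53inp1 was high in VAT of obese replicate 1, at 18.7 CPM against 4.30 to 6.65 CPM, in a library with 2247737 counts. Chance marks about 1 in 20 groups in this way, and 4 of the 35 groups examined were marked. The libraries come from 4 different mice.

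Cdkn2b also responded differently to the diet in VAT than in SAT, by -0.95 on the log2 scale (adjusted p = 0.0308, edgeR with the mouse as a block). The 4 obese mice all had less Cdkn2b in VAT than in SAT, and 3 of the 4 lean mice had more.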

How the results depend on the processing

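With rows summed, Cdkn2c kept its call in both depots, and Lmnb1 its call in VAT, under all alternatives. Of the single Cdkn2c rows, NM_007671 was called in both depots and NM_001301368 in neither in the main fit. In SAT 1 of the 8 genes was called, against 4 without the filter, 3 with the replicate block and 2 with DESeq2, legacy=FALSE, limma voom, the 8 SAT libraries alone or without the 2 shallowest VAT libraries. Leaving out 1 replicate gave 1 to 2. In VAT 3 of the 8 were called, against 4 without the filter (Cdkn1a added), 2 with limma voom, the VAT libraries alone or without the 2 shallowest VAT libraries, and 2 to 4 with 1 replicate left out. Of 10 rows 1 was called in SAT, against 4 without the filter, 4 with the replicate block, 3 with limma voom, the SAT libraries alone or without the 2 shallowest VAT libraries, and 2 with DESeq2 or legacy=FALSE, and 1 to 2 with 1 replicate left out. The difference between depots gave 1 call, against 3 with DESeq2, 0 without the mouse as a block (Cdkn2b then had adjusted p = 0.228, edgeR) and 0 to 1 with 1 replicate left out. The depot comparison in obese mice gave 6 calls and 3 to 6 with 1 replicate left out. Without the filter the calls added in SAT were Cdkn1a, Cdkn2b and Lmnb1. There edgeR did not use each gene's own spread, as given for Cdkn1a. For the other alternatives the cause was not tested.

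By the labels, lean and obese mice share only a number. Deviations of same-numbered lean and obese libraries of a depot correlated at -0.093 to 0.172 (median 0.0675, 8 pairs), against -0.148 to 0.119 (median -0.0219, 24 pairs) for different numbers, and 7 of 16 libraries correlated best with their own number. These values do not show whether the number carries a shared factor, so the fit with the replicate block is given as an alternative only. In SAT it added Cdkn1a and Lmnb1 to the calls.

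Of the values compared, 846 kept direction and side of the threshold, 38 passed it only under the alternative, 29 passed it no longer, and 25 uncalled values changed sign. In SAT Mdm2 became -0.012 with filterByExpr and -0.0070 with the SAT libraries alone, and in VAT -0.062 without the 2 shallowest VAT libraries, where its row XM_017313822 became -0.015. With 1 replicate left out Mdm2 ranged in SAT from -0.20 to 0.24, in VAT from -0.11 to 0.28, from -0.037 to 0.31 between depots of lean mice, from -0.065 to 0.40 in obese mice and from -0.15 to 0.31 in the difference. Its row XM_017313822 had a SAT range of -0.21 to 0.21 and a VAT range of -0.093 to 0.29, and NM_010786 a VAT range of -0.44 to 0.095. Between depots Cdkn1a ranged from -0.26 to 0.48 in lean and from -0.37 to 0.051 in obese mice, with a difference of -0.67 to 0.049. In lean mice Cdkn1b ranged from -0.030 to 0.055 and Trp53inp1 from -0.16 to 0.35, and Trp53inp1 became -0.0021 with legacy=FALSE.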
